A study of Mus musculus with 4 samples.

Results

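Mitochondrial ribosomal protein genes were taken as the rows whose symbol begins with Mrpl or Mrps and a number, which selected 75 of the 24138 genes of the expression table. By the uniform nomenclature of ribosomal proteins, 49 of them encode proteins of the large mitoribosomal subunit and 26 of the small subunit. Mrps30 and Mrps18a carry small-subunit symbols but encode large-subunit proteins and were counted there. Liver RNA was sequenced from 4 C57BL/6J males, 18 weeks old, that were on the FAT-MASH diet, where MASH stands for metabolic dysfunction-associated steatohepatitis, and were treated with resolvin D1 (RvD1), a lipid mediator that cells make from docosahexaenoic acid. The 4 livers form a single group, numbered 1 to 4 as in their labels. No diet-only, vehicle-treated or untreated liver was analysed here, so the values describe levels and their spread between treated animals, and no effect of the diet or of RvD1 can be read from them.

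The mitochondrial ribosome translates the few messenger RNAs of mitochondrial DNA, which encode core subunits of the respiratory chain and of ATP synthase. Its RNAs are made inside the organelle, whereas its proteins are encoded in the nucleus, made in the cytosol and imported. Part of these proteins have bacterial counterparts and the rest are specific to mitochondria. Hepatocytes are rich in mitochondria and depend on them for fatty acid oxidation, the urea cycle and gluconeogenesis.

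Values are FPKM, fragments scaled by transcript length and by mapped fragments, so that levels can be set side by side between genes. The depth estimated from single-transcript genes was between 18.4 and 19.5 M fragments (M, mega) per liver, and the summed FPKM of all genes ranged from 516816 to 570681, with the highest sum in liver 4. Of the 6 hepatocyte markers, 5 were detected, with a summed level that was lowest in liver 2 (21888 FPKM) and highest in liver 4 (30338 FPKM), and Alb was listed at 0 in every liver. Summed macrophage markers ranged from 146 to 197 FPKM, endothelial markers from 36.3 to 46.2 FPKM, stellate markers from 182 to 284 FPKM, cholangiocyte markers from 14.6 to 18.0 FPKM, lymphocyte markers from 1.81 to 2.56 FPKM and erythroid markers from 427 to 1076 FPKM. The erythroid sum adds Alas2 and each row named Hba-a1, a symbol with more than 1 row, and Hbb-bs of the list had no row. The livers are bulk samples, in which fewer cells of a type and less RNA per cell cannot be told apart.

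All 75 members were above 0 in every liver, as were 58.1% of all rows of the table, and all had a mean of at least 1 FPKM, the level at which a gene is called expressed here and which 43.7% of all rows reached. A mean of at least 10 FPKM was found for 65 members (86.7%), against 43.1% of the expressed genes. The median member had 29.4 FPKM, against 7.83 FPKM for the 10541 expressed genes, and 69 members lay above the latter value. The summed level of the members was 2592, 2632, 2587 and 2775 FPKM in livers 1 to 4, which was 0.494%, 0.504%, 0.501% and 0.486% of all FPKM. The share thus differed little between animals (0.496 ± 0.00786%, SD, n = 4), and liver 4 had the highest sum but the lowest share. The total behind the share lacks Alb, normally among the most abundant liver transcripts, whose 0 can be a failed estimate and cannot be read as absence of expression.

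**Figure D1:**
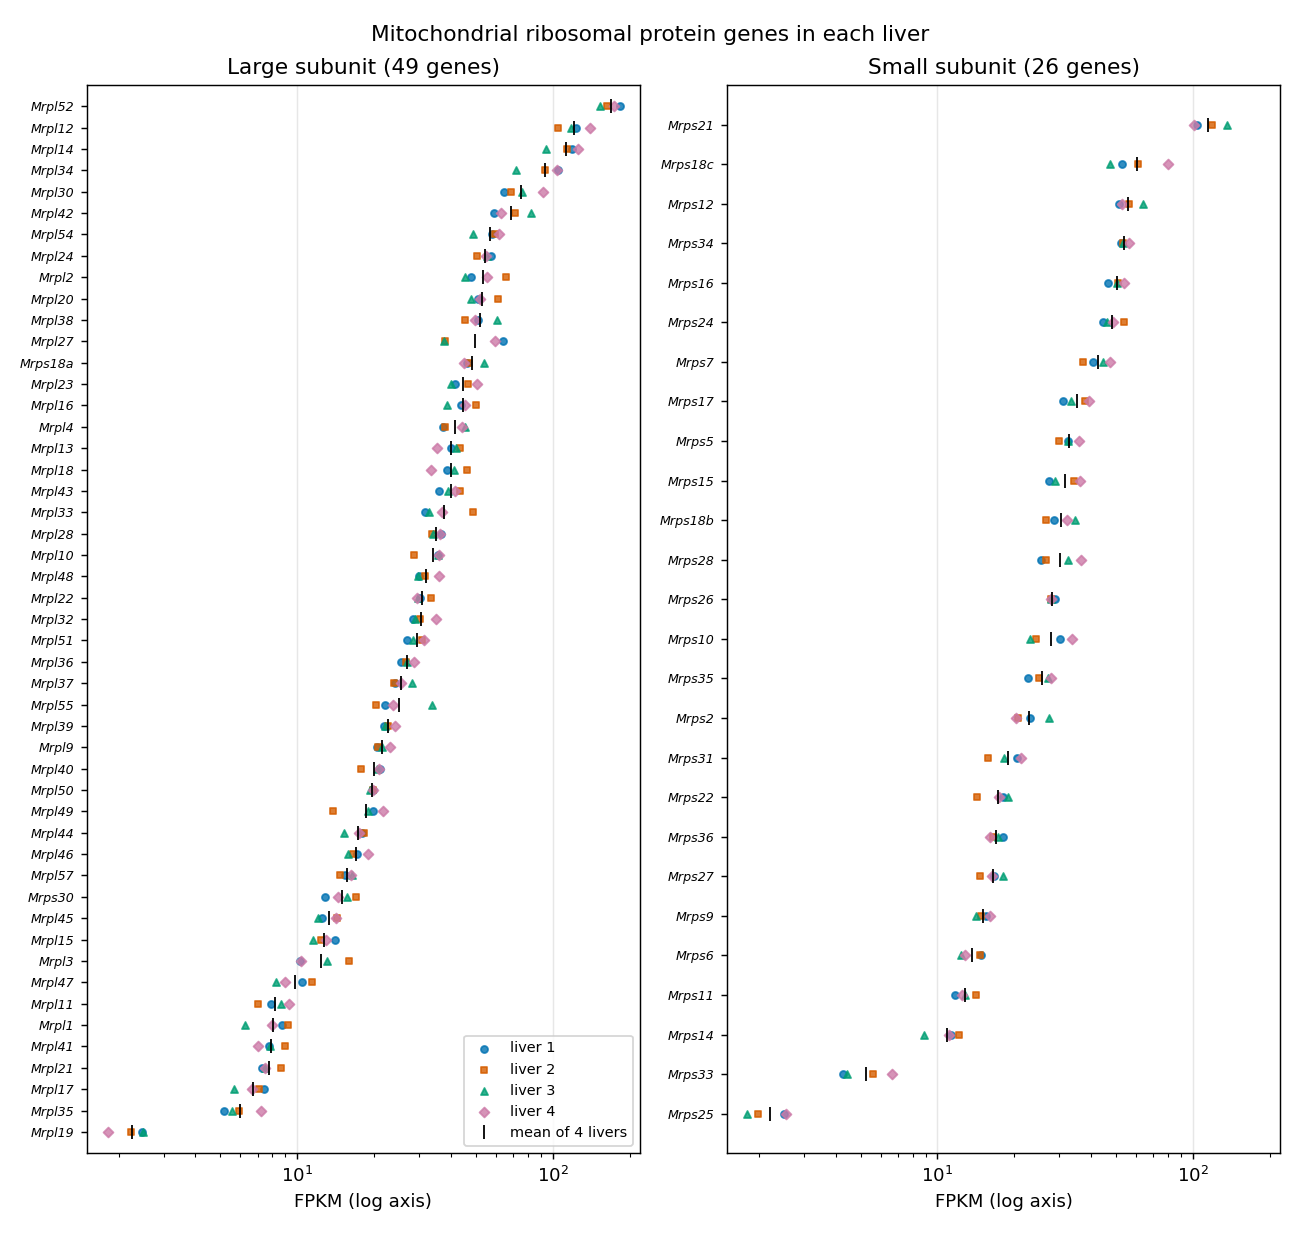
FPKM of each mitochondrial ribosomal protein gene on a log axis, with 1 point per liver and a bar at the mean of 4 livers, for the large subunit (49 genes) and the small subunit (26 genes). Means span from 2.21 FPKM for Mrps25 to 169 FPKM for Mrpl52, while the livers of 1 gene lie close together.

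Most of these proteins are present in a single copy per mitoribosome. Their transcripts covered a 76.3-fold range of mean FPKM. The most abundant transcript was Mrpl52 (XLOC_006224, chromosome 14, 54426909 to 54429750, plus strand), which encodes a large-subunit protein specific to mitochondria. Livers 1 to 4 had 184, 164, 153 and 174 FPKM of it. Its lowest liver lay above the highest liver of the next gene, Mrpl12. Mrps21 encodes a bacterial-type protein of the small subunit and had 115 ± 15.8 FPKM. Mrpl14, whose protein is the docking site of the assembly factor Malsu1, had 113 ± 13.2 FPKM (each SD, n = 4). Mrpl34, a bacterial-type protein of the large subunit, had 93.5 ± 15.4 FPKM (SD, n = 4). The ranges of Mrpl12, Mrps21, Mrpl14 and Mrpl34 overlapped, and Mrpl34 was above Mrps21 in livers 1 and 4, so that the order of these 4 is not fixed by these data. These 5 genes made up 23.1% of the summed mean level of all members.

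The lowest members were Mrps25 (chromosome 6, 92091418 to 92184023) with 2.50, 1.99, 1.80 and 2.55 FPKM and Mrpl19 (chromosome 6, 81923669 to 81965949) with 2.46, 2.25, 2.49 and 1.82 FPKM in livers 1 to 4. Both lie in a deposited span that is shared with another gene, Nr2c2 for Mrps25 and Gcfc2 for Mrpl19, and how fragments were divided within such a span is not known. Mrps33 (5.24 ± 1.11 FPKM), Mrpl35 (5.97 ± 0.878 FPKM) and Mrpl17 (6.71 ± 0.766 FPKM, each SD, n = 4) came next and have spans of their own. In all, 8 members share a span with another symbol: Mrps25, Mrpl19, Mrpl21, Mrpl24, Mrpl41, Mrpl48, Mrpl49 and Mrps27. Without them the range of means was 32.2-fold.

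Low and high members differed in transcript length. By the principal GENCODE transcript, the 25 members with the lowest levels had a median length of 2431 bases and the 25 with the highest levels 918 bases, with median coding lengths of 648 and 480 bases. Across the 75 members, the level and transcript length had a Spearman's rho of -0.55, against -0.26 for the level and coding length. Over 9986 expressed genes the rho of level and transcript length was -0.34. FPKM is itself divided by a length, so both measures share it, and these values are descriptions across genes. Mrpl17, for example, has an annotated transcript of 7300 bases. Mrpl52, the highest member, has the shortest annotated transcript of all members (418 bases), so its level depends strongly on the length used.

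By role, the L7/L12 stalk recruits translation factors to the large subunit. Its flexible arm is Mrpl12 (chromosome 11, 120484669 to 120488754), a protein present in several copies, whose transcript had 123, 105, 118 and 139 FPKM across livers 1 to 4. Mrpl10, which anchors the copies of Mrpl12, was at 35.7, 28.7, 35.6 and 36.0 FPKM, and Mrpl11, at the base of the stalk, at 7.87, 7.02, 8.68 and 9.32 FPKM. Each of these 3 genes was lowest in liver 2 and highest in liver 4. Mrpl1, of the L1 stalk that guides spent transfer RNA outward, had 8.03 ± 1.30 FPKM (SD, n = 4) and was lowest in liver 3.

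Around the peptidyl transferase centre, where peptide bonds are formed, Mrpl2 had 53.6 ± 9.28 FPKM, Mrpl16 44.4 ± 4.66 FPKM and Mrpl3 12.4 ± 2.71 FPKM (each SD, n = 4). All 3 were highest in liver 2, with 65.9, 49.9 and 16.0 FPKM. The fourth gene of this list, Mrpl27, encodes a protein that reaches the acceptor ends of transfer RNA and behaved otherwise, with 64.1, 37.8, 37.4 and 59.3 FPKM in livers 1 to 4. Livers 2 and 3 were thus close to each other and below livers 1 and 4.

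At the exit of the peptide tunnel, Mrpl24 had 54.5 ± 2.94 FPKM, Mrpl23 44.6 ± 4.85 FPKM and Mrpl22 30.8 ± 1.86 FPKM. Mrpl45, which helps to hold the ribosome at the inner membrane, had 13.3 ± 1.17 FPKM, Mrpl47 9.80 ± 1.44 FPKM and Mrpl17 the value above (each SD, n = 4). In the central protuberance, which faces the small subunit's head, Mrpl38 had 51.7 ± 6.50 FPKM, Mrpl18 39.9 ± 5.33 FPKM, Mrpl48 31.9 ± 2.87 FPKM, Mrpl55 24.9 ± 5.99 FPKM, Mrpl40 20.1 ± 1.55 FPKM and Mrpl46 17.1 ± 1.32 FPKM (each SD, n = 4). Genes whose proteins are neighbours in the particle were therefore listed at levels that differ by several fold.

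In the small subunit, Mrps12, of the decoding centre, had 51.2, 56.4, 63.5 and 52.5 FPKM across livers 1 to 4. Mrps24 and Mrps5, which line the entrance of the messenger RNA channel, had 48.1 ± 4.03 and 32.6 ± 2.49 FPKM (each SD, n = 4). Mrps36 was counted in the small subunit by its name only. It is known as a subunit of the 2-oxoglutarate dehydrogenase complex of the citric acid cycle and had 17.0 ± 0.882 FPKM (SD, n = 4). The 3 paralogues of bacterial S18 take up different places in the particle. Mrps18c, the bacterial-type protein, had 60.2 ± 14.3 FPKM, Mrps18a 48.1 ± 4.02 FPKM and Mrps18b 30.4 ± 3.56 FPKM (each SD, n = 4). Mrps18c had 52.6, 61.1, 47.2 and 79.9 FPKM across livers 1 to 4, and was below Mrps18a in liver 3. Mrps18b was the lowest of the 3 in each liver.

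Loss-of-function variants of several human counterparts cause combined oxidative phosphorylation deficiency, at times with liver disease. The 12 mouse genes of this list were all expressed, with a median of 26.5 FPKM. They ran from Mrps25 and Mrps14 (10.9 ± 1.41 FPKM) through Mrps22 (17.2 ± 1.99 FPKM), Mrpl44 (17.2 ± 1.35 FPKM), Mrps2 (22.9 ± 3.21 FPKM), Mrps28 (30.2 ± 5.15 FPKM) and Mrps7 (42.4 ± 4.44 FPKM) to Mrps16 (50.3 ± 2.82 FPKM), Mrps34 (53.8 ± 1.75 FPKM) and Mrpl12 (each SD, n = 4).

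The subunits as wholes were near each other. The median large-subunit gene had 28.4, 30.2, 29.8 and 31.4 FPKM in livers 1 to 4, and the median small-subunit gene 26.4, 25.7, 27.5 and 30.0 FPKM. The ratio of the medians was 1.09 ± 0.0554 (SD, n = 4) and was above 1 in each liver. Bacterial-type members (46 genes) had higher medians than mitochondrion-specific members (29 genes) in each liver. Their medians were 31.3, 33.6, 33.2 and 35.9 FPKM, against 21.1, 19.9, 20.5 and 21.7 FPKM, a ratio of 1.61 ± 0.0938 (SD, n = 4). The ratio was 1.22 with means in place of medians. Mitochondrion-specific members include Mrpl52, the highest of all, and Mrps25, the lowest.

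The members are spread over 17 chromosomes, with 9 on chromosome 11 and 8 on chromosome 17. Many have a second gene that starts nearby on the other strand. It was called a back-to-back partner where the annotated starts lie within 1000 bases and the plus-strand gene has the later midpoint. A protein-coding partner of this kind was found for 28 of the 75 members (37.3%), against 14.4% of 9989 expressed genes. The pairs include some where each start lies inside the other gene, so that the genes overlap and do not point away. These are the pairs of Mrpl13, Mrpl21, Mrpl27, Mrpl47, Mrps7 and Mrps30. The median distance between the starts was 122 bases. Within the family itself the pair is Mrps11 and Mrpl46 on chromosome 7, a small-subunit and a large-subunit gene whose starts are 30 bases apart. Across livers 1 to 4, Mrps11 had 11.7, 14.2, 12.8 and 12.5 FPKM and Mrpl46 had 17.1, 16.5, 15.8 and 18.9 FPKM. Mrps11 was highest in liver 2 and Mrpl46 in liver 4, and Mrpl46 was the higher gene in each liver.

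Of 24 members paired with a gene outside the family that has a value under its annotated symbol, 19 exceeded their partner. The medians were 31.6 FPKM for the members and 3.15 FPKM for the partners. Twnk, the partner of Mrpl43 (39.8 FPKM), was left out because it is listed here under the older symbol Peo1 (5.07 FPKM). Of 1345 expressed genes with such a partner value, 58.7% exceeded it. In both sets the genes average at least 1 FPKM whereas the partners were not filtered on level. The difference between the sets was not tested, and the count is given as a description and not as a trait of the family. Mrps12 shares its start region with Sars2, the mitochondrial seryl-tRNA synthetase, which had 8.12, 5.53, 8.51 and 6.94 FPKM. The partner was the higher gene for Mrpl49 (Fau, 149 FPKM, which encodes a ribosomal protein of the cytosol), Mrpl47 (Ndufb5, 100.5 FPKM, a complex I subunit), Mrpl32 (Psma2, 70.8 FPKM, a proteasome subunit), Mrpl18 (Tcp1, 62.5 FPKM, a chaperonin subunit) and Mrpl41 (Pnpla7, 28.7 FPKM, a lysophospholipase). These 5 were named after their values were seen.

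Promoter windows from 250 bases before to 50 after the annotated start (RefSeq, GRCm38.p6) were available for 66 members. They were searched on both strands for letters known from factors that control nuclear genes of mitochondria. The core of the NRF1 consensus, with 1 base left free, was present in 13 windows (19.7%), against 11.2% of 7989 expressed genes and 6.82% of all 16514 promoters searched. The ETS letters CCGGAAG, read by GABP among others, were in 22 windows (33.3%), against 19.4% and 12.4%. The YY1 letters AAGATGGC were in 12 windows (18.2%), against 5.16% and 3.27%. The full palindromic NRF1 consensus, all of whose matches are also matches of the core, was in 3 windows (4.55%), those of Mrpl32, Mrpl39 and Mrpl9, against 2.27% of expressed genes. At least 1 of these was found in 39 windows (59.1%), against 31.6% of expressed genes. The YY1 letters began at a median of 15 bases after the start and the NRF1 letters at a median of -43.5, so that 14 of 16 NRF1 matches began within 100 bases before the start or after it. In cytosolic ribosomal protein genes the shares were 8.47% for NRF1, 37.3% for ETS and 8.47% for YY1 over 59 windows. A match describes letters in the window and not binding.

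Members with the ETS letters had a median of 31.3 FPKM and those without 23.9 FPKM. With and without the NRF1 letters the medians were 22.7 and 29.4 FPKM, and with and without the YY1 letters 28.8 and 27.9 FPKM.

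The windows of 5 members are shown because they carry the back-to-back starts, the highest levels and the motif types described, with matched letters in capitals. Mrps11 (chr7:78782881-78783180, plus strand) includes the start of Mrpl46 on the other strand and holds reversed YY1 letters. Mrps12 (chr7:28741772-28742071, minus strand) includes the start of Sars2 and holds the ETS letters and reversed YY1 letters. Mrpl12 (chr11:120484387-120484686, plus strand) holds the NRF1 letters. Mrpl52 (chr14:54426659-54426958, plus strand) holds reversed ETS letters at a pair of positions, and Mrps18a (chr17:46110754-46111053, plus strand) holds ETS letters followed by YY1 letters.
Mrps11: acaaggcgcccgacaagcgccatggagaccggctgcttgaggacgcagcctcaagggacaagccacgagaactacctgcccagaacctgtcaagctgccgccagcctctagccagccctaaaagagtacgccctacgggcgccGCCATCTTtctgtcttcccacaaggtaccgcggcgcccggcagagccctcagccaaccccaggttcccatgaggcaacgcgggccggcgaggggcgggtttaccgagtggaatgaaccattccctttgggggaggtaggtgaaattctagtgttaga
Mrps12: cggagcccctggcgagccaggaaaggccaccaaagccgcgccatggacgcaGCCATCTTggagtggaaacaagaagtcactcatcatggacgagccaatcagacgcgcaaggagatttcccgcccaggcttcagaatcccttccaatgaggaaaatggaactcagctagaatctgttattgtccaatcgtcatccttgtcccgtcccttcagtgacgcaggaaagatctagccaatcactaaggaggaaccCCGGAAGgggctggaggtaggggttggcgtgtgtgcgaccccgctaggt
Mrpl12: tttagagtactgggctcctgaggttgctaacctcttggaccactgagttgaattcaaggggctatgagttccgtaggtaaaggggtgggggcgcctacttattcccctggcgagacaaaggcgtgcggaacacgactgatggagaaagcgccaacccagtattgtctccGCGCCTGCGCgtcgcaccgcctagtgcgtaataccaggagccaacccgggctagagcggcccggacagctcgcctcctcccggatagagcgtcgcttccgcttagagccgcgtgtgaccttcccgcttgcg
Mrpl52: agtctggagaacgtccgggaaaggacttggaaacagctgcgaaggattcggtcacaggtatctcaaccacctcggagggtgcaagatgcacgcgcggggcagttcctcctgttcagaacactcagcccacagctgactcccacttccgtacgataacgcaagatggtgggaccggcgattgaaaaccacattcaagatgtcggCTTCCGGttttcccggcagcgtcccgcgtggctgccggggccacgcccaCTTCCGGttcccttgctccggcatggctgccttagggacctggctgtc
Mrps18a: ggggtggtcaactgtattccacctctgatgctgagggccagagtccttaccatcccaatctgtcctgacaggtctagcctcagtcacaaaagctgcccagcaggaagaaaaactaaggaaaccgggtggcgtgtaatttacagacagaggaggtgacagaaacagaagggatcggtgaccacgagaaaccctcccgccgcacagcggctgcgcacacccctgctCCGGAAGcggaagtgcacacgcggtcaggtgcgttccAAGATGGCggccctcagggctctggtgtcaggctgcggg

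**Figure D2:**
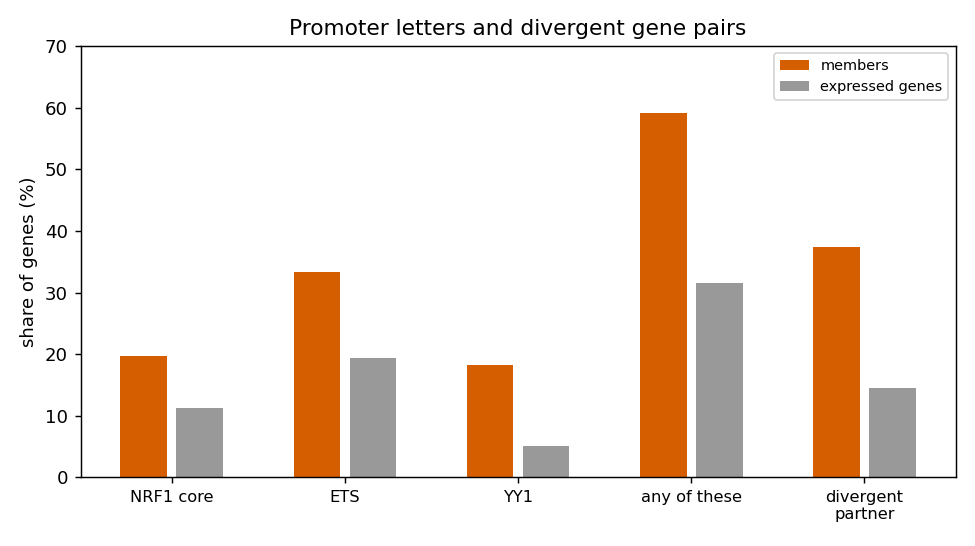
Share of genes in percent whose promoter window holds the letters of each motif, and share with a back-to-back partner gene, for the members and for expressed genes. Back-to-back partners include pairs of genes that overlap at their starts. Each of the 5 shares is larger in the members, such as 19.7% against 11.2% for NRF1 and 37.3% against 14.4% for a partner.

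The spread of each gene was taken between the 4 animals on the log2(FPKM + 1) scale, on which differences of low genes come out too small. The median member had an SD of 0.15, against 0.16 for expressed genes, and 66 members (88.0%) had an SD below 0.25, against 81.7% of expressed genes. Among members and genes of like level, between the 25th and 75th percentiles of the members, the medians were 0.13 and 0.16. No member's highest liver was at least 2-fold its lowest, against 6.54% of expressed genes, and 68 of the 75 stayed under 1.5-fold, against 71.6% of expressed genes. The median range was 1.26-fold in members and 1.34-fold in expressed genes. Counting error alone, estimated on the log2(FPKM) scale from depth and annotated length, had a median of 0.06 over the members. The SD was above the counting error of the same gene in 65 of the 75 members. The lowest number of fragments behind a value was about 74.7, for Mrpl41 in 1 liver.

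**Figure D3:**
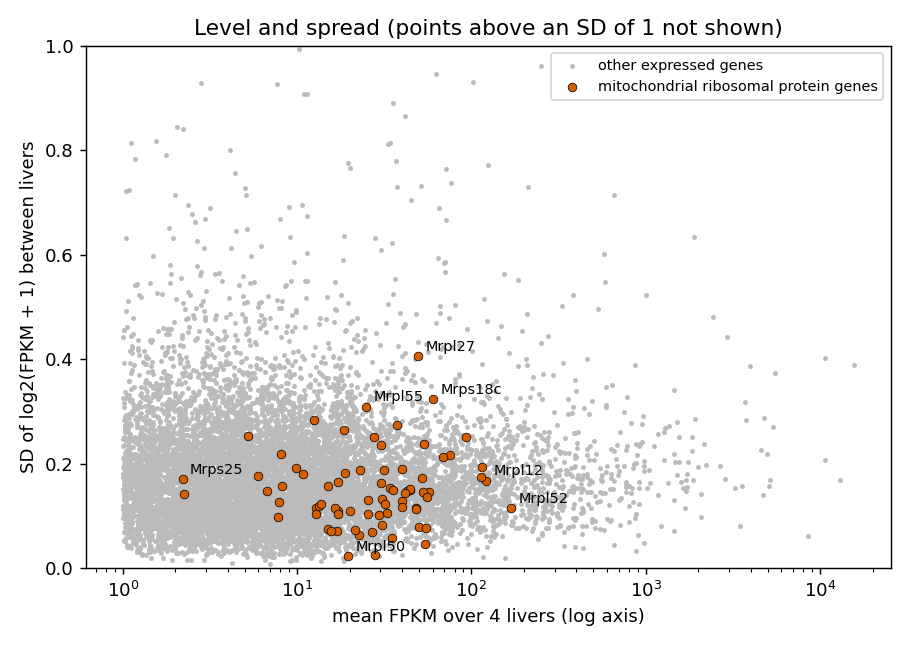
SD of log2(FPKM + 1) between the 4 livers against mean FPKM on a log axis, with 1 point per expressed gene (those with an SD above 1 are not shown) and the 75 members in orange. The members lie within the cloud of other genes, from 0.02 for Mrpl50 to 0.41 for Mrpl27.

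Mrpl27 had the widest spread (SD 0.41 on the log2 scale, a 1.71-fold range), as given above. Mrps18c followed with 0.32, its highest value being in liver 4. Mrpl55, of the central protuberance, had 22.1, 20.4, 33.7 and 23.7 FPKM across livers 1 to 4 (SD 0.31), with liver 3 above the others. Mrpl3 was at 10.3, 16.0, 13.1 and 10.3 FPKM (SD 0.28), so that livers 1 and 4 were equal to 3 digits. Mrpl33 was at 31.6, 48.7, 32.9 and 36.9 FPKM (SD 0.27), with liver 2 highest. For Mrpl49 liver 2 was instead the lowest, at 13.9 FPKM, with 19.8, 19.0 and 21.7 FPKM in livers 1, 3 and 4 (SD 0.26). Mrps33 and Mrpl34 both had an SD of 0.25. These 8 genes did not share a liver in which they were high.

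The steadiest members were Mrpl50, at 19.9, 19.9, 19.2 and 19.8 FPKM in livers 1 to 4 (SD 0.02), and Mrps26, at 28.9, 27.9, 27.7 and 27.9 FPKM (SD 0.03). Mrps34, a small-subunit protein specific to mitochondria, followed at 52.3, 53.3, 53.4 and 56.3 FPKM (SD 0.05). Mrpl28 and Mrpl39 both had an SD of 0.06, with means of 35.1 ± 1.45 and 22.7 ± 1.05 FPKM (each SD, n = 4). The SD was below the counting error estimated for the same gene in Mrpl50 (0.0226 against 0.0538) and Mrps26 (0.0253 against 0.0309). The same held for Mrps34 (0.0456 against 0.0532) and Mrpl28 (0.0581 against 0.0599). The order of these genes is therefore not fixed by these data.

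A single liver stood apart from the other 3, by Dixon's ratio at its 95% critical value, in 2 of the 75 members, against 5.46% of expressed genes. Mrpl10 was lower in liver 2, and Mrpl50 was lower in liver 3 by a small amount, with an SD below its estimated counting error.

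Across livers the members were compared with their own means. The median deviation was -0.04, 0.00, -0.03 and 0.06 on the log2 scale in livers 1 to 4, against -0.01, -0.02, -0.01 and 0.04 for expressed genes. Members above their mean numbered 31, 38, 29 and 52 of 75, against 47.2%, 45.1%, 47.0% and 60.8% of expressed genes. In no liver did 75% of the members lie on the same side, the share set for calling the family higher or lower there. Liver 4 held the highest value of 30 members (33.3% of expressed genes) and the lowest of 9 (18.1%). Liver 3 held the highest value of 14 members (26.8%) and the lowest of 25 (31.4%). Liver 2 held the highest value of 19 (22.0%) and the lowest of 17 (29.9%), and liver 1 the highest of 12 (17.9%) and the lowest of 24 (20.7%). Liver 4 also had the highest total FPKM and the highest summed hepatocyte, macrophage (197 FPKM) and endothelial (46.2 FPKM) markers. Of the 5 detected hepatocyte markers, Apoa1, Cyp2e1 and Ttr were highest in liver 4, whereas Cps1 (748 FPKM against 617 FPKM in liver 4) and Hnf4a (156 against 118 FPKM) were highest in liver 3. The part of these in the result was not tested. After upper-quartile scaling the median deviation in liver 4 was 0.00, with 38 members above their mean.

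**Figure D4:**
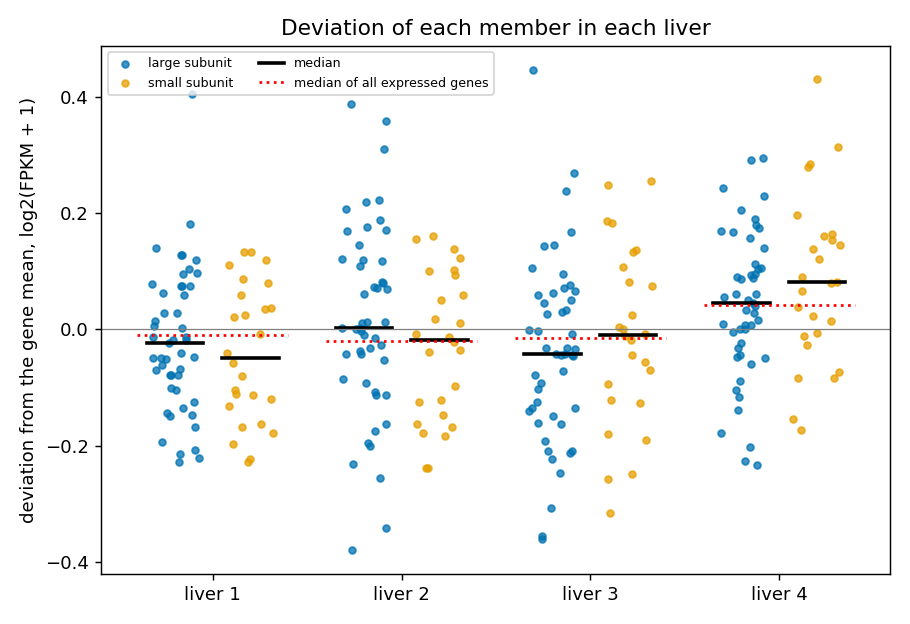
Deviation of each member from its own mean over the 4 livers, as log2(FPKM + 1), by liver and subunit, with black bars at the medians and dotted lines at the median of all expressed genes. The points lie on both sides of 0 in each liver, with 52 of 75 above 0 in liver 4.

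By subunit and class the counts were as follows. Large-subunit genes above their mean numbered 20, 27, 18 and 34 of 49 in livers 1 to 4, of which 13, 17, 10 and 20 were among the 30 bacterial-type genes and 7, 10, 8 and 14 among the 19 specific to mitochondria. Small-subunit genes numbered 11, 11, 11 and 18 of 26, of which 5, 10, 6 and 11 were among the 16 bacterial-type genes and 6, 1, 5 and 7 among the 10 specific to mitochondria. In liver 2 the median deviations were 0.03 and -0.07 for these classes of the small subunit, and 0.01 and 0.00 for those of the large subunit. These differences were not tested.

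Cytosolic ribosomal protein genes, whose products translate all other messenger RNAs, had a median of 270 FPKM over 79 expressed genes, 1 of which had a liver apart. Above their mean were 17, 64, 10 and 73 of them in livers 1 to 4. The median deviations were -0.09, 0.10, -0.13 and 0.11 on the log2 scale. After upper-quartile scaling 64 were above their mean in liver 4. The difference between the families was not tested.

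Other genes of mitochondrial translation were counted by list. Of the mitoribosome subunits that lack an Mrp symbol, 6 were expressed, of 6 in the table and 7 symbols listed. Ict1 was listed under an older and a newer symbol. Their median was 28.8 FPKM, between those of the small and large subunit members (27.9 and 30.7 FPKM). Aurkaip1 had 65.0 ± 7.35 FPKM, Ict1, a peptide release protein that became part of the large subunit, 37.3 ± 3.38 FPKM, and Chchd1 36.5 ± 2.81 FPKM (each SD, n = 4). Of the 6, 2, 0, 4 and 4 were above their mean in livers 1 to 4. Translation factors (14 of 14 expressed) had a median of 11.0 FPKM. They were led by the elongation factor Tufm with 82.9 ± 8.53 FPKM, the RNA-binding protein Slirp with 58.6 ± 5.09 FPKM and the elongation factor Gfm1 with 56.1 ± 7.06 FPKM (each SD, n = 4).

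Assembly factors (23 expressed of 24 in the table and 28 symbols listed) had a median of 6.43 FPKM. The symbols outnumber the genes because Mterf3, Mterf4, Ftsj2 and Rnmtl1 were each listed under an older and a newer symbol. Rbfa, which acts late in small-subunit assembly, had 28.0 ± 1.25 FPKM, and Rpusd3, a pseudouridine synthase, 11.8 ± 2.73 FPKM (each SD, n = 4). Malsu1, the partner of Mrpl14, had 18.6, 23.9, 20.3 and 20.4 FPKM across livers 1 to 4. Mitochondrial aminoacyl-tRNA synthetases (17 of 17 expressed) had a median of 6.19 FPKM, with Iars2 at 27.8 ± 3.32 FPKM, Fars2 at 26.3 ± 4.74 FPKM and Lars2 at 20.1 ± 4.54 FPKM (each SD, n = 4). In livers 1 to 4, the genes above their own mean numbered 16, 3, 12 and 13 of 23 assembly factors, 9, 4, 3 and 11 of 14 translation factors, and 11, 6, 9 and 10 of 17 synthetases. Next to the 31, 38, 29 and 52 of 75 ribosomal proteins, these 3 lists had larger shares in liver 1 and smaller ones in liver 2. The differences between the lists were not tested.

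Regulators of mitochondrial genes and of mitochondrial DNA transcription (17 expressed of 17 in the table and 18 symbols listed) had a median of 6.27 FPKM. Peo1 was listed under its newer symbol Twnk as well. The nuclear receptor Esrra had 16.0 ± 2.15 FPKM, Yy1 15.8 ± 1.98 FPKM and Ssbp1, which coats single-stranded mitochondrial DNA, 12.1 ± 1.52 FPKM (each SD, n = 4). Named after their values were seen, the motif-reading factors Nrf1 and Gabpa had 2.53, 2.03, 2.57 and 2.63 FPKM and 10.1, 10.3, 8.99 and 10.3 FPKM in livers 1 to 4. Above their own mean were 6, 7, 8 and 12 of the 17 regulators in livers 1 to 4.

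**Figure D5:**
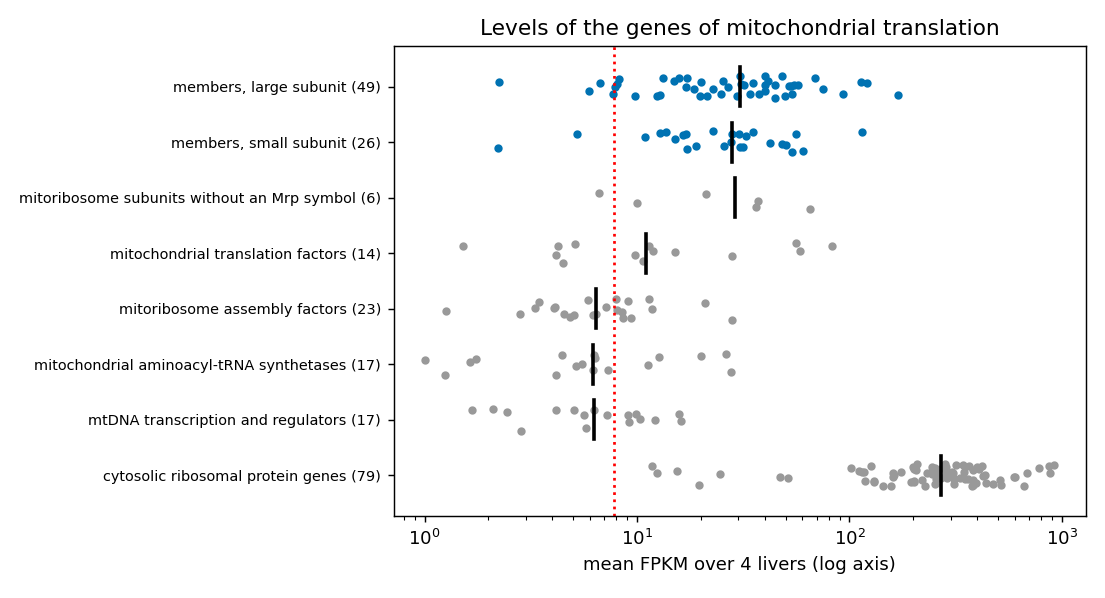
Mean FPKM over 4 livers on a log axis for each gene of the lists of mitochondrial translation and for cytosolic ribosomal protein genes, with a bar at the median of each list and a dotted line at the median of all expressed genes. The members (blue) have medians of 30.7 FPKM for the large and 27.9 FPKM for the small subunit, above assembly factors at 6.43 FPKM and below cytosolic ribosomal proteins at 270 FPKM.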

How the data were processed

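Liver RNA from 4 mice was sequenced after poly(A) enrichment, per the labels' protocols. The submitters' processing notes name the mm10 build and FastQC 0.10.1, Trim Galore 0.6.3, cutadapt, STAR 2.7.6a and Cufflinks 2.2.1, without their roles. The authors deposited 1 table of values per gene, which were taken as FPKM because they are not whole numbers and the identifiers have the form Cufflinks writes. The annotation behind it is not given in the sources used here. Columns were matched through the sample descriptions, with 0 left unmatched. Starts were raised by 1, since they then equalled the RefSeq start in 52.2% of symbols instead of 3.01%.

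A table of FPKM holds no counts. For depth, FPKM was multiplied by transcript length less 200 bases in genes having 1 annotated transcript over 800 bases. The median product between 25 and 75 was taken as the worth of 1 fragment, so the depth is approximate. Spread and deviations used log2(FPKM + 1). Expressed genes were those averaging 1 FPKM or more. Lengths and starts came from GENCODE vM21 (GRCm38), and promoter sequences from RefSeq (GRCm38.p6), 1 window per gene, nearest to the principal transcript's start. Analyses used Python 3.11.15, numpy 2.4.6 and pandas 2.3.3, and the measures were tested on simulated data. The SD covers animal and technical spread together.

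With a single group there was no test between groups. Named with values were the 5 highest and 5 lowest members, the 8 with the largest and 5 with the smallest SD among those with a mean of at least 5 FPKM, members with a liver apart, the S18 paralogues, Mrps36, members of fixed role lists and the 3 highest genes of each pathway list. Genes outside this rule (members and partners named for a back-to-back pair, a motif or a shared span, hepatocyte and erythroid markers, genes named for a double symbol, Nrf1 and Gabpa) were named after their values were seen. The members and lists were chosen with earlier results of these data known. Alternatives were other pseudocounts, filters and scalings, means in place of medians, and leaving out livers, pseudogene symbols or members with a shared span.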

Additional observations from a re-analysis of the deposited data

Results flagged for a closer look

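A single liver lay far from the other 3, by the gap to its neighbour relative to the whole range, for 2 members. Mrpl10 had a ratio of 0.951, since liver 2 had 28.7 FPKM while the others lay between 35.6 and 36.0 FPKM. Mrpl50 had a ratio of 0.868, since liver 3 had 19.2 FPKM while the others lay between 19.8 and 19.9 FPKM. The named pathway genes and the totals per liver were checked as well. Among them, Nrf1 had a ratio of 0.842, with 2.03 FPKM in liver 2, and the summed FPKM of all genes had 0.859, with 570681 in liver 4. Cell type markers and back-to-back partners outside the pathway lists were not checked for this listing. Chance flags about 1 in 20 groups, and 5.46% of expressed genes met this rule, a larger share than 2 of 75 members.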

How the results depend on the processing

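Values were recomputed under each alternative and compared with the spread between livers (for the median SD, its jackknife error). Several alternatives could not move a value: no member has a pseudogene symbol, all 75 pass without a filter, ratios and shares do not change with scaling, and leaving out 1 liver moves a mean over livers by less than its SD by construction. Values that stayed close under them are therefore no sign of stability. The summed level was 2505 FPKM and its share 0.470% without members that share a span, by construction of fewer genes. Without them the ratio of bacterial-type to mitochondrion-specific members was 1.42. Means in place of medians gave a level of 35.3 FPKM, a large to small subunit ratio of 1.18 and a bacterial-type to mitochondrion-specific ratio of 1.22. The median SD was 0.12 with a pseudocount of 5 and between 0.13 and 0.15 when 1 liver was left out (0.126 without liver 2, 0.155 without liver 1). Upper-quartile scaling brought the deviation in liver 4 to 0.00378. The cause was not tested for these. Of the members, 73 averaged 5 FPKM or more. The number of members with a liver apart was 3 in place of 2 with a pseudocount of 5 and with upper-quartile scaling. Dixon's ratio was not recomputed with 3 livers, for which it is not used here. No paired analysis was possible because the livers form a single group. The FPKM table holds no counts, so intervals from counts cannot be given.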
